A study of Mus musculus with 8 samples.

Results

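The genes of the mouse major histocompatibility complex (MHC, called H2 in the mouse) and the genes that supply and load its peptides were followed in heart RNA from mice on an adenine diet and mice on a standard diet. Members were all rows of the deposited count table whose symbol starts with H2-, which gave 39 genes, and 10 named genes outside that prefix: B2m, Tap1, Tap2, Tapbp, Psmb8, Psmb9, Psmb10, Cd74, Ciita and Nlrc5. Together they were 49 of the 27304 genes in the table. The Adenine group consists of 4 libraries from hearts of male mice of the inbred strain 129/Sv that ate chow with 0.15% adenine over 13 weeks, a diet that injures the kidney and is used as a model of chronic kidney disease. The Sham group consists of 4 libraries from male 129/Sv mice on the standard diet over the same 13 weeks. No mouse is labelled as carrying a transgene or a deletion, and their age was not given in the sources used here. Whether each library stands for its own mouse is not stated in the labels, and p-values therefore cover the spread among these libraries, part of which may be technical.

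Class I molecules, a heavy chain bound to beta2-microglobulin, sit on nearly all nucleated cells and show CD8 T cells peptides made in the cytosol. Those peptides are cut by the proteasome, which carries other catalytic subunits under interferon, pumped into the endoplasmic reticulum by the transporter TAP and fitted to the heavy chain with the help of tapasin. Class II molecules, pairs of an alpha and a beta chain, are made mainly by dendritic cells, macrophages and B cells and show CD4 T cells peptides from endocytosed material. Their groove is held by the invariant chain until H2-DM exchanges the last piece of it for a peptide. In the heart, endothelial cells are a main source of class I, whereas cardiomyocytes make little of either class.

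Both classes are transcribed from promoters that share a short row of elements, and these are shown here because the members are grouped by class below. RefSeq promoter windows on GRCm38.p6, from 250 bases before to 50 bases after the gene start, were found for 36 of the 49 members. The stretches printed are 150 bases long, end before the start, and are written 5′ to 3′ on the strand of the gene. Capitals mark the letters ATTGG or their reverse complement (the core of the Y box, bound by NF-Y), GGGGATTCC (the kappaB site of class I enhancers), and 2 spaced motifs. The X box with its neighbour, bound by the RFX complex and CREB, was searched as CC, any 2 bases, G, any 2 bases, AC, any 2 bases and ATG, and the interferon response element as GAAA, any 2 bases and GAAA. The first 4 stretches belong to class I genes and B2m, the last 2 to class II genes.
H2-K1, chr17:34000348-34000497, minus strand: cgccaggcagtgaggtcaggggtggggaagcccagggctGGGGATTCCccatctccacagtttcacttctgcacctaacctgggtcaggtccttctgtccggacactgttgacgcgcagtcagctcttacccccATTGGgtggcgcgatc
H2-Q6, chr17:35424651-35424800, plus strand: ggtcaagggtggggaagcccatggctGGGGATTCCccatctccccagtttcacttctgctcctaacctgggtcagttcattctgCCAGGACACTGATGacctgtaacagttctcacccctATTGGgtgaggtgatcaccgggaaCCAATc
H2-Q7, chr17:35438995-35439144, plus strand: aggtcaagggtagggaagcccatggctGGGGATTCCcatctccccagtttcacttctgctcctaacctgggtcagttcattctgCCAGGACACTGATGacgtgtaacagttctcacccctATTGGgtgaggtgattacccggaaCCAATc
B2m, chr2:122147514-122147663, plus strand: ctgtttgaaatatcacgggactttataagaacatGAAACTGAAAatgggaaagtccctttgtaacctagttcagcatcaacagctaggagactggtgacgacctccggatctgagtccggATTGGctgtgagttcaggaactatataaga
H2-Aa, chr17:34287842-34287991, minus strand: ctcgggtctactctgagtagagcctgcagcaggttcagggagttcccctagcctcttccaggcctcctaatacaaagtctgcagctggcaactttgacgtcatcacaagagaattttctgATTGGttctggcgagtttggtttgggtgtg
H2-Eb1, chr17:34305688-34305837, plus strand: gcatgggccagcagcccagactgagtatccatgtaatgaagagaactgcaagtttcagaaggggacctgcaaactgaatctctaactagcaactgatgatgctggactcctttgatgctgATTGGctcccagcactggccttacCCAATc

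On either strand, the Y box letters were in the windows of 32 of 36 members, 8 of 8 class II and 19 of 21 class I genes among them, against 41.1% of 27025 genes with a window. The X box letters were in 7 of 36 members, 2 of 8 class II and 5 of 21 class I genes, against 0.858% of all genes. The kappaB letters were in 4 of 36 (H2-D1, H2-K1, H2-Q6 and H2-Q7) against 0.296%, and the interferon element in 3 of 36 (B2m, H2-T22 and H2-T23) against 3.99%. A match is a run of letters and not a measured binding site. Forms of an element with other letters are missed, so a stretch without a match may still hold the element. No 2 of these motifs share bases in the stretches printed. The sequences are those of the reference strain C57BL/6J, to which the reads of 129/Sv hearts were also aligned, and the effect of strain differences on the counts of these polymorphic genes was not tested.

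Adenine libraries held 15626620 to 29831706 counts and Sham libraries 24107554 to 33886385, and the members took 0.0793 to 0.163% of them in Adenine and 0.0721 to 0.140% in Sham. The heart label was matched by the 6 cardiomyocyte markers, whose summed level was 26360 to 47350 CPM (counts scaled to library size with TMM factors) in Adenine and 40430 to 51590 CPM in Sham. The library Adenine 3 stood apart: its 4 pan-leukocyte markers summed to 261.0 CPM, where Adenine 1, 2 and 4 had 51.1 to 55.6 CPM and Sham had 47.8 to 78.5 CPM. Its 13 macrophage and monocyte markers summed to 2703 CPM, against 332 to 488 CPM in the other Adenine and 406 to 675 CPM in the Sham libraries. Lyz2 alone had 2065 CPM of that sum. In Adenine 3, Ly6c2, Lyve1 and Folr2 lay within the Sham range and Timd4 below it, while the other markers of the list lay above it. For this reason member values are also given without Adenine 3. In bulk tissue, a change in the number of cells of a type and a change of RNA per cell cannot be told apart.

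No member passed an adjusted p of 0.05 over the 20093 genes tested with edgeR's quasi-likelihood test. Of the 49 members, 43 passed the low-count filter, and 0 of them were called higher or lower in Adenine, where 8 genes in all were called higher (0.0398%) and 0 lower (0%). At an unadjusted p under 0.05, 5 members were higher (Ciita, H2-Bl, H2-Eb2, H2-M5 and H2-T18), a share close to the 10.9% of all genes, and 0 were lower against 6.63%. DESeq2 and limma-voom also called 0 of 43 members, but DESeq2 gave no adjusted p for H2-M1, H2-M10.2, H2-M10.3, H2-M10.6 and H2-M9. Over all genes tested, limma-voom called 5 higher (0.0249%) and 0 lower (0%). DESeq2 called 153 higher (0.761%) and 175 lower (0.871%), shares that count genes without an adjusted p as not called. At an unadjusted p under 0.05, DESeq2 put 6 of 43 members higher and 0 lower, against 2585 and 1241 of all 20093 genes. Libraries of the 2 diets did not overlap in 1 member, H2-M5, which was higher in Adenine, against 3.45% of all genes in that direction and 3.84% in the other. The median log2 fold change (Adenine minus Sham) was 0.15 over the 43 members and 0.05 over all genes. With upper-quartile factors the median over all genes moved to 0.20 and that of the members to 0.28. Most class II genes and both regulators had positive fold changes, and abundant class I genes negative ones, under each scaling tried, while the signs of 2 peptide supply genes depended on it, as given below. The plot of fold changes shows the members by role.

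**Figure D1:**
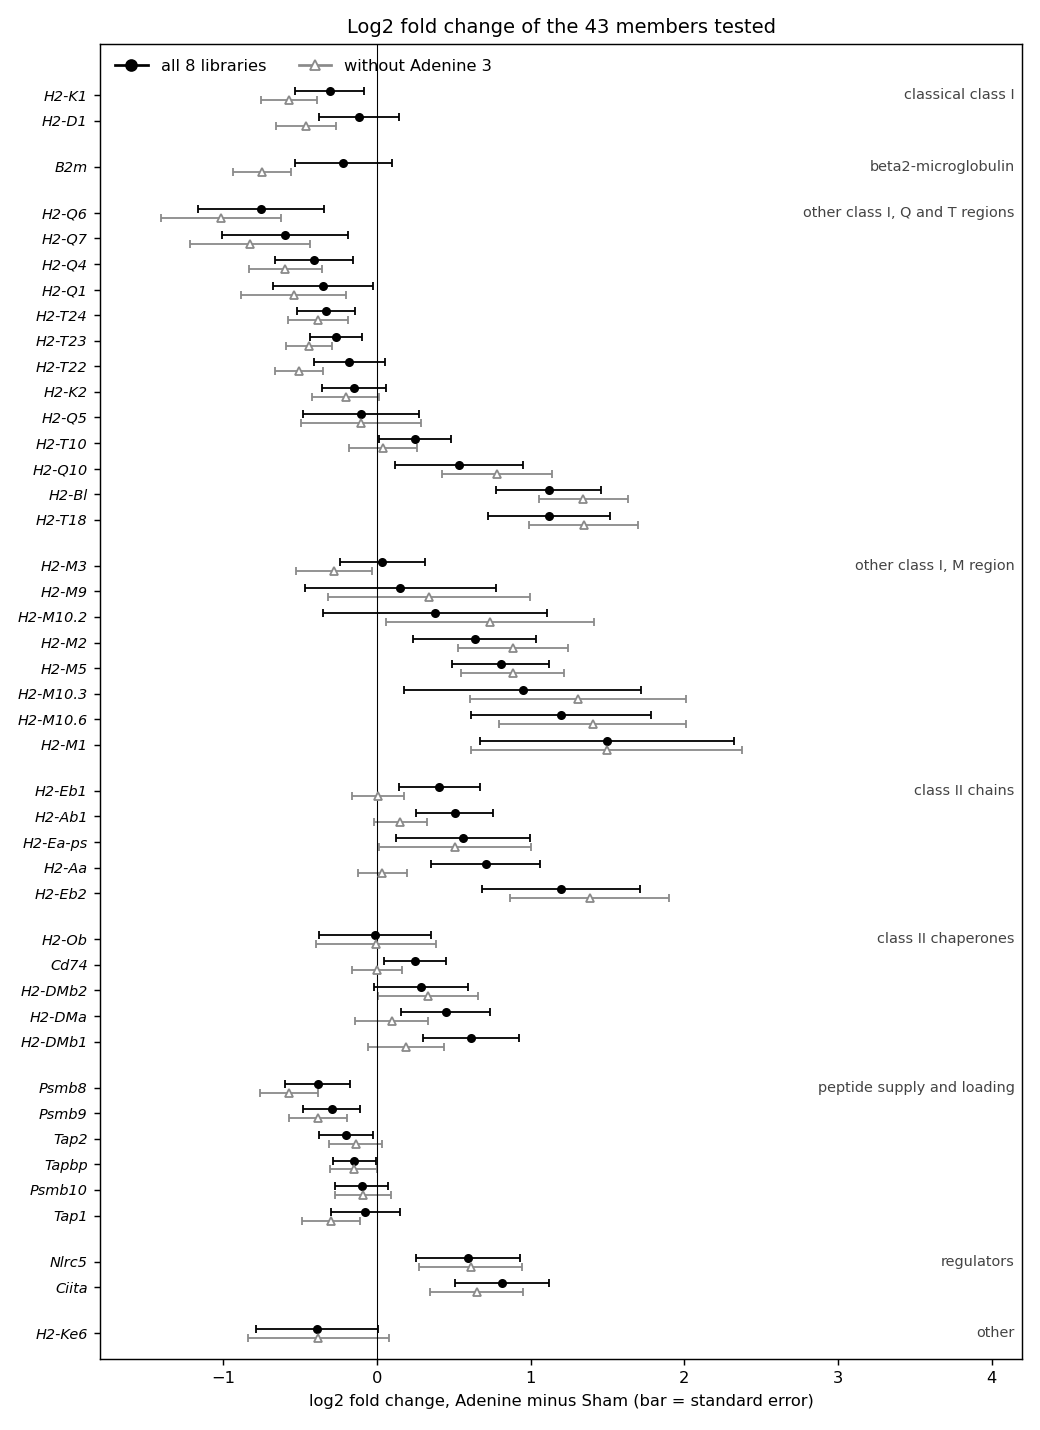
Log2 fold change (Adenine minus Sham, x axis) of each of the 43 members tested, ordered by role, with bars for the standard error from edgeR. Black circles use all 8 libraries and grey triangles leave out Adenine 3: H2-Aa moves to 0.04 from 0.71 and B2m to -0.75 from -0.22.

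Without Adenine 3, still 0 members passed the threshold, where 37 genes were called higher (0.178%) and 30 lower (0.144%) of 20824. Then 8 members were lower at an unadjusted p under 0.05, all of them class I or class I supply genes (B2m, H2-D1, H2-K1, H2-Q4, H2-Q6, H2-T22, H2-T23 and Psmb8), against 9.90% of all genes, and 8 were higher (Ciita, H2-Bl, H2-Eb2, H2-M10.6, H2-M2, H2-M5, H2-Q10 and H2-T18) against 18.9%. The lowest adjusted p of any member was 0.0542, for H2-Bl in that fit. Adenine 3 was the highest of the 8 libraries in 12 of 43 members against 13.8% of all genes, and these included 6 of 10 class II and 4 of 23 class I genes. The Sham libraries also differed among themselves in a shared way. Sham 4 was the highest Sham library in 31 of 43 members against 29.7% of all genes, and Sham 2 the lowest in 37 of 43 against 35.7%.

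**Figure D2:**
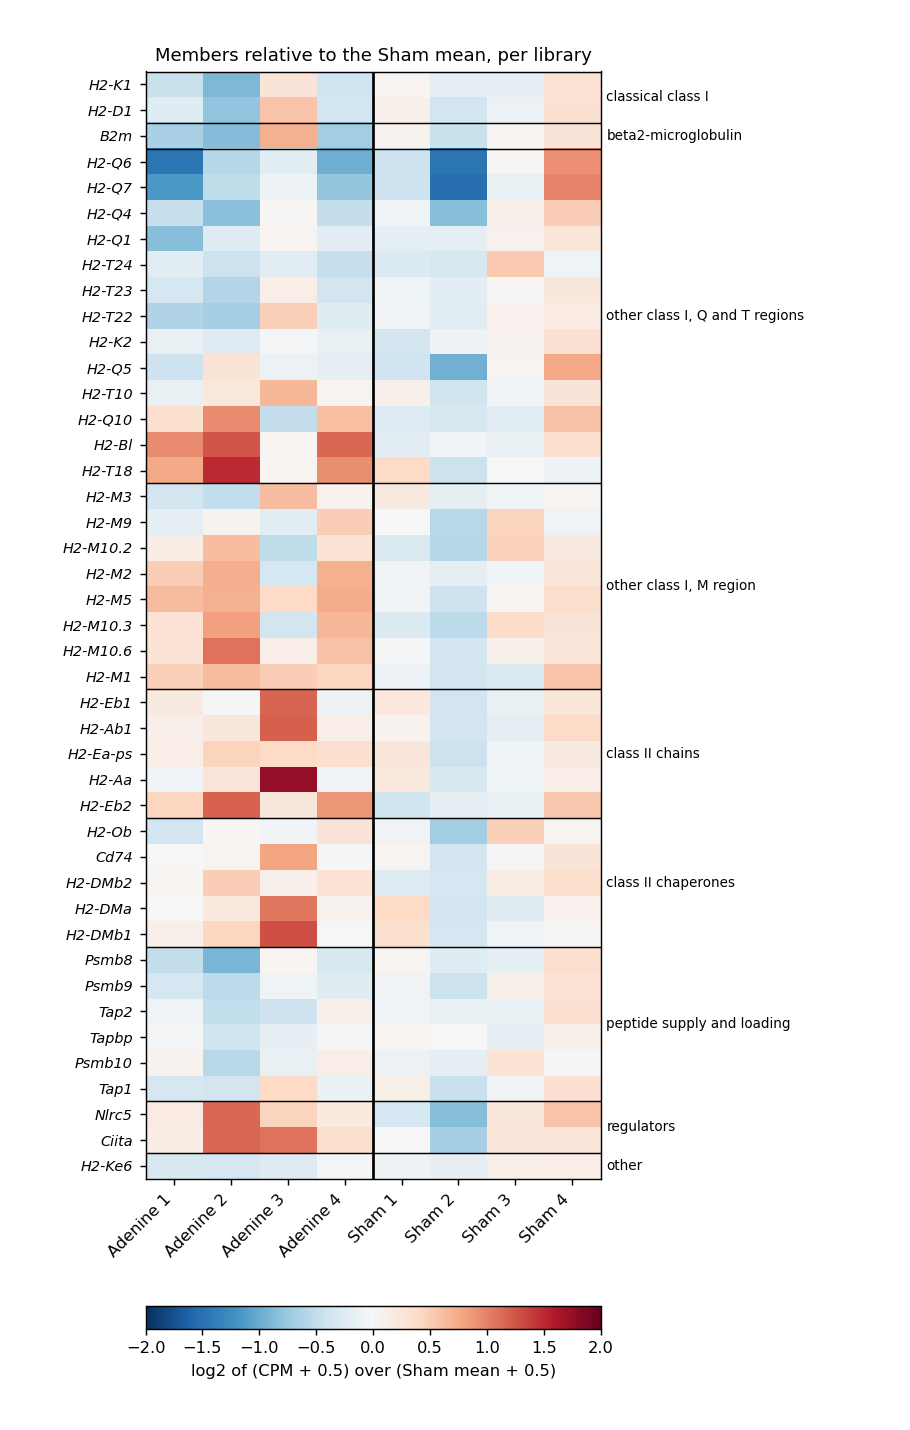
Each cell is the log2 of a member's CPM plus 0.5 over the Sham mean plus 0.5, for the 43 members tested (rows, by role) in the 4 Adenine and 4 Sham libraries (columns); red is above and blue below the Sham mean. Class II rows other than H2-Ob are red in Adenine 3, upper class I rows are blue in Adenine 1, 2 and 4, and most rows are blue in Sham 2 and red in Sham 4.

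Scaled to exon length (RPKM, over the union of exons in GENCODE M21), B2m was the most abundant member, with 228 ± 138 RPKM in Adenine and 266 ± 51.4 RPKM in Sham (SD, n = 4 each). H2-D1 followed with 60.5 ± 26.2 RPKM in Adenine and 65.8 ± 13.1 RPKM in Sham, and H2-K1 had 37.4 ± 13.0 RPKM in Adenine and 46.3 ± 7.81 RPKM in Sham. Cd74, the most abundant class II gene, stood at 43.2 ± 13.1 RPKM in Adenine and 36.4 ± 6.42 RPKM in Sham, so that its mean lay above that of H2-K1 in Adenine and below it in Sham. The class II chains H2-Eb1, H2-Ab1 and H2-Aa were at 15.1 to 23.2 RPKM in Adenine and 9.29 to 17.5 RPKM in Sham. A gene whose main transcript is shorter than its exon union is understated on this scale.

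The classical class I heavy chains, H2-K1 (chr17:33996017-34000347) and H2-D1 (chr17:35262730-35267499), present peptides to CD8 T cells. H2-K1 had 99.9, 73.0, 163 and 103 CPM in Adenine 1 to 4, against 140.4, 118, 119 and 167 CPM in Sham 1 to 4. Adenine 1, 2 and 4 lay below every Sham library, and Adenine 3 lay within the Sham range. The log2 fold change was -0.31 (SE 0.22, edgeR adjusted p = 0.426), and -0.57 (SE 0.18, adjusted p = 0.0857) without Adenine 3. H2-D1 had 143, 97.9, 253 and 129.9 CPM in Adenine 1 to 4, against 181, 130.5, 157 and 209.6 CPM in Sham 1 to 4. Here Adenine 3 was the highest of all 8 libraries, Adenine 2 the lowest, and the diets overlapped, with a log2 fold change of -0.12 (SE 0.26, edgeR adjusted p = 0.792) and -0.46 (SE 0.20, adjusted p = 0.141) without Adenine 3.

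B2m, on chromosome 2 (chr2:122147686-122153083), encodes the light chain that every class I heavy chain needs to reach the surface. It had 145, 125, 374 and 141 CPM in Adenine 1 to 4, against 239.7, 167, 236 and 272 CPM in Sham 1 to 4. Adenine 3 held 2.73 times the mean of the other Adenine libraries, and those 3 lay below all 4 Sham libraries. The log2 fold change was -0.22 (SE 0.32, edgeR adjusted p = 0.683) with all libraries and -0.75 (SE 0.19, adjusted p = 0.0658) without Adenine 3. Without that library, B2m, H2-K1, H2-Q1, H2-T22, H2-T23 and Psmb8 were the 6 of 43 members whose Adenine values all lay below Sham, against 8.31% of all genes. In the other direction, H2-Bl, H2-M10.6, H2-M2, H2-M5 and H2-T18 were the 5 of 43 whose Adenine values all lay above Sham, against 12.6% of all genes. The ratio of B2m to the sum of H2-K1 and H2-D1 was 0.597 to 0.898 in Adenine and 0.672 to 0.856 in Sham, so the diets overlapped.

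**Figure D3:**
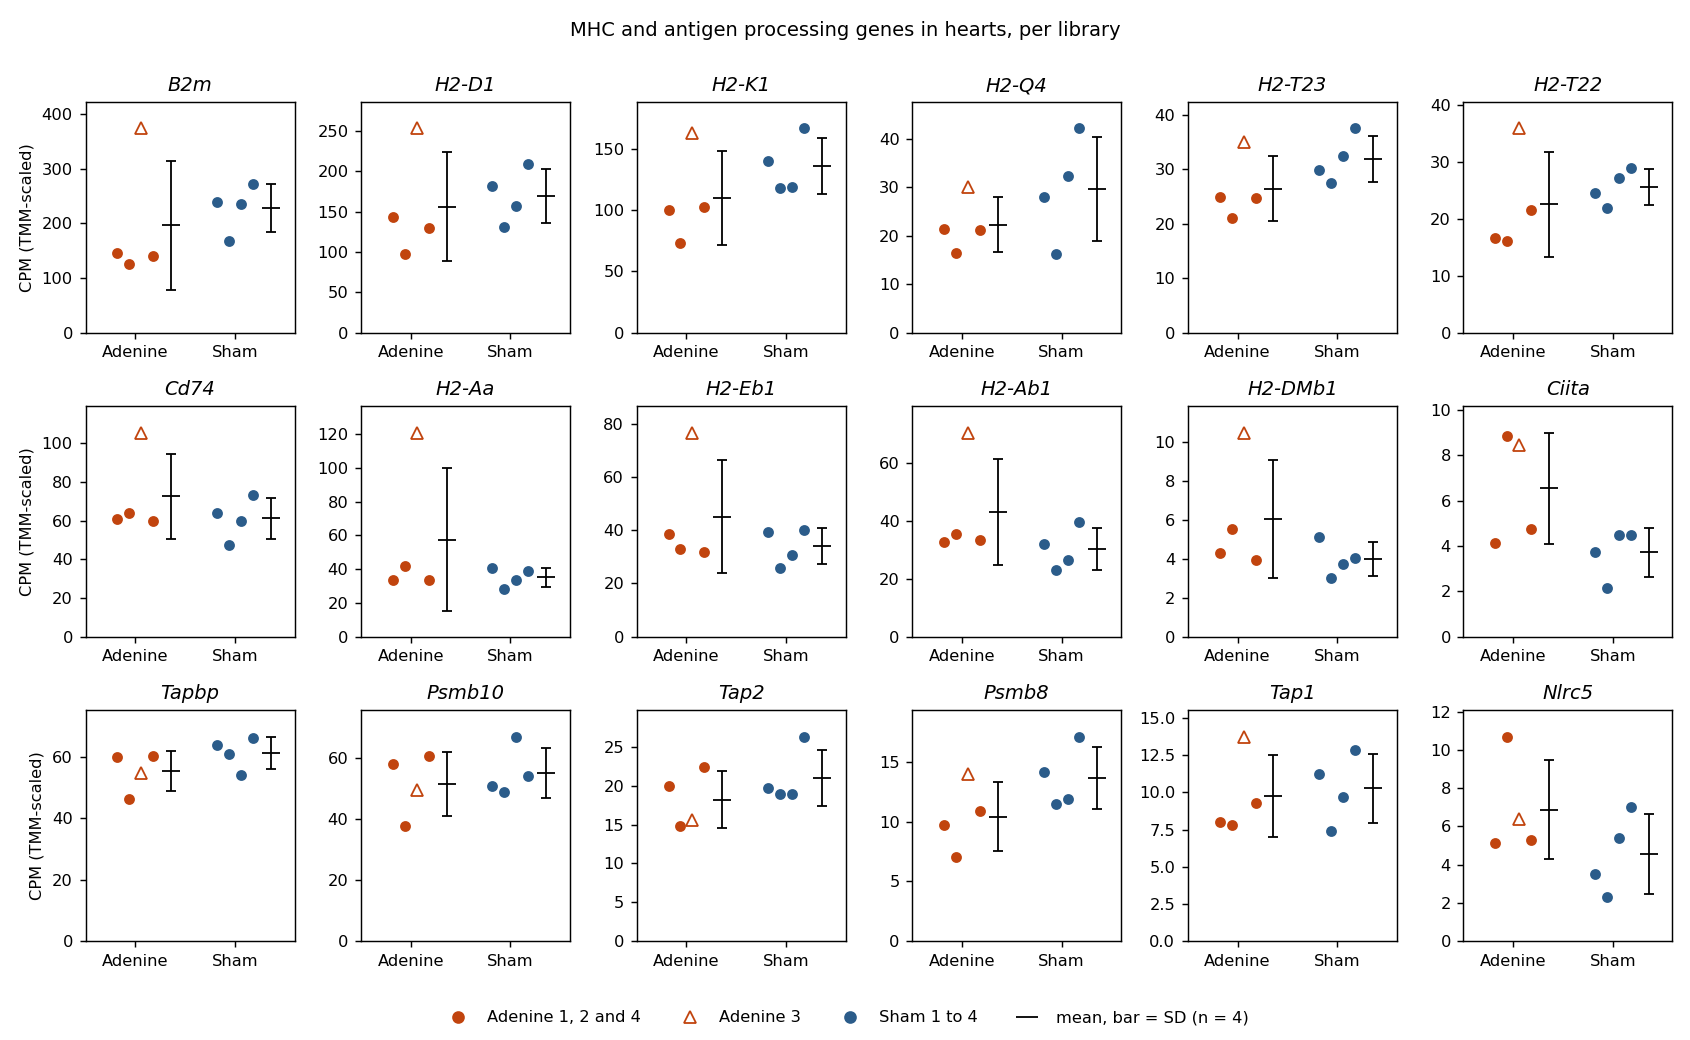
CPM (y axis from 0, scaled by TMM factors) of 18 members in each Adenine and Sham library, with mean and SD (n = 4) beside the points; Adenine 3 is the open triangle. In B2m, H2-K1, H2-T23, H2-T22 and Psmb8 the other Adenine libraries lie below every Sham library, and in the class II chains Adenine 3 lies above all others.

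The class I genes outside the classical pair lie in the Q, T and M regions of chromosome 17. H2-T23 encodes Qa-1, which shows leader peptides of class I chains to NK cells, and H2-Q4, Q6 and Q7 encode Qa-2 related molecules. H2-T23 had 24.9, 21.1, 35.0 and 24.6 CPM in Adenine 1 to 4, against 29.9, 27.5, 32.5 and 37.5 CPM in Sham 1 to 4. H2-Q4 had 21.4, 16.3, 30.1 and 21.3 CPM in Adenine, against 28.1, 16.2, 32.3 and 42.2 CPM in Sham. H2-T22, whose product is a ligand of some gamma-delta T cell receptors, had 16.6, 16, 35.8 and 21.5 CPM in Adenine, against 24.4, 21.8, 27.1 and 28.8 CPM in Sham. The diets overlapped in all 3 genes, and for H2-T23 and H2-T22 only through Adenine 3. Their log2 fold changes were -0.27 (SE 0.17), -0.41 (SE 0.26) and -0.18 (SE 0.23), with edgeR adjusted p-values of 0.382, 0.372 and 0.646.

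The 8 class I heavy chain genes that averaged 10 CPM or more all had negative log2 fold changes, from -0.76 for H2-Q6 to -0.12 for H2-D1, with a median of -0.32, whereas 45.8% of all genes were negative and the median over all genes was 0.05. Without Adenine 3 all 8 stayed negative, against 46.4% of all genes, with a median of -0.54. The level of 10 CPM that separates them was chosen with earlier results known, and 0 of the 8 were called. Signs over the whole table also varied with abundance: 9196 of 20093 genes were negative in the main fit, and 7590 of 15727 with a filter of 1 CPM in 4 libraries. A share among genes of like abundance was not computed. H2-Q6 and H2-Q7 varied more among Sham libraries than between diets: H2-Q6 had 5.92 to 14.8 CPM in Adenine and 5.96 to 32.8 CPM in Sham, with Sham 2 lowest and Sham 4 highest. H2-Q7 followed the same order, with 7.48 to 15.9 CPM in Adenine and 5.72 to 34.6 CPM in Sham.

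Near-identical sequence and overlapping genes limit single-gene values in this family. Of all 50-base words in its GENCODE transcripts, H2-T22 shared 53.5%, H2-T10 50.4%, H2-Q5 36.5%, H2-Q4 36.4% and H2-Q6 35.0% with transcripts of another gene. For H2-Q5 and H2-Q6 the main partner was the class I gene H2-Q7, so that short reads could fit both. H2-T22 and H2-T10 shared words with each other, which for H2-T22 came to 31.25% at 50 bases and 6.92% at 100 bases. The rest of their sharing, and the largest single share for H2-Q4 (15.3%), was mainly with a gene on the opposite strand of the same place, where the doubt is one of strand. H2-D1 shared 12.8% and H2-K1 9.63%, whereas B2m, Cd74, H2-Ab1 and H2-Eb1 shared 0%. Adding up 16 class I rows before the fit, which removes any misplacement among them, gave a log2 fold change of -0.23 (SE 0.23, edgeR adjusted p = 0.563).

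The 15 class I genes below 10 CPM had the opposite sign more often, with 12 of 15 positive, against 54.2% of all genes, and a median log2 fold change of 0.53. Those with the fewest reads can pass the low-count filter mainly through the diet where they are higher, so this count is not independent of the filter. For these low genes, too, a share among genes of like abundance was not computed. H2-Bl, annotated as a polymorphic pseudogene (chr17:36080115-36084223), had the lowest p of all members. It had 3.48, 4.46, 1.62 and 4.08 CPM in Adenine 1 to 4, against 1.29, 1.49, 1.38 and 2.10 CPM in Sham 1 to 4, and only Adenine 3 lay within the Sham range. Its log2 fold change was 1.12 (SE 0.34, edgeR adjusted p = 0.226). The row called H2-T18, whose Ensembl gene GENCODE names H2-T3 and which encodes the thymus leukemia antigen, had 2.48, 4.46, 1.30 and 2.88 CPM in Adenine, against 1.84, 0.813, 1.27 and 1.15 CPM in Sham, with a log2 fold change of 1.12 (SE 0.40, edgeR adjusted p = 0.249). H2-M5 had 2.36, 2.51, 1.91 and 2.58 CPM in Adenine, against 1.26, 0.881, 1.38 and 1.83 CPM in Sham. It was the member whose diets did not overlap, with a log2 fold change of 0.80 (SE 0.32, edgeR adjusted p = 0.265).

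All 8 M-region genes tested had positive fold changes, against 54.2% of all genes, with a median of 0.72, and 6 of 8 were positive without Sham 2. Apart from H2-M3 they had at most 2.58 CPM in any library. The low-count filter can keep a gene mainly through the diet where it is higher. H2-M1, for example, had 8 to 13 reads in Adenine and 0 to 12 in Sham. The signs of the M-region genes are therefore not independent of the filter. H2-M3, which presents formylated peptides, was the most abundant of them, at 2.87 to 6.75 CPM in Adenine and 3.69 to 4.87 CPM in Sham, and the only member whose fold change took the other sign without Adenine 3, -0.28 against 0.03. The H2-M10 genes are known from the vomeronasal organ, and the olfactory and vomeronasal receptor genes of the table were summed for comparison. These 1472 receptor genes reached 730.3, 2009, 653 and 1226 CPM in Adenine 1 to 4, against 583, 423, 827 and 851 CPM in Sham 1 to 4. The 11 M-region genes without H2-M3 summed to 6.76, 10.6, 4.14 and 9.01 CPM in Adenine, against 4.00, 2.07, 5.33 and 6.00 CPM in Sham. In both sums Adenine 2 was highest, Adenine 4 second and Sham 2 lowest. The part of this receptor signal in the low-count members was not tested.

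The class II chains H2-Aa (chr17:34282744-34287823) and H2-Ab1 (chr17:34257689-34269419) form the I-A molecule. H2-Eb1 (chr17:34305867-34316674) encodes the beta chain of I-E, whose alpha chain is present in the table as the pseudogene H2-Ea-ps. H2-Aa had 33.8, 42.0, 121 and 33.5 CPM in Adenine 1 to 4, against 40.7, 28.3, 33.3 and 38.8 CPM in Sham 1 to 4. H2-Ab1 had 32.9, 35.7, 70.7 and 33.6 CPM in Adenine, against 32.1, 23.2, 26.7 and 39.8 CPM in Sham. H2-Eb1 had 38.6, 33.0, 76.7 and 31.9 CPM in Adenine, against 39.4, 25.9, 30.8 and 40.2 CPM in Sham. In each chain Adenine 3 was the highest of the 8 libraries, and the other Adenine libraries lay among the Sham libraries, except that Adenine 2 was also above all Sham libraries in H2-Aa.

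The log2 fold changes were 0.71 (SE 0.35) for H2-Aa, 0.51 (SE 0.25) for H2-Ab1 and 0.40 (SE 0.26) for H2-Eb1, with edgeR adjusted p-values of 0.306, 0.303 and 0.385. Without Adenine 3 they were 0.04, 0.15 and 0.01. H2-Eb2, a second beta chain gene, had 0.840, 1.77, 0.669 and 1.35 CPM in Adenine, against 0.258, 0.373, 0.410 and 0.956 CPM in Sham. Its log2 fold change of 1.20 (SE 0.52, edgeR adjusted p = 0.274) was larger, 1.39, without Adenine 3, unlike those of the other chains. H2-Ea-ps lay at 0.680 to 0.978 CPM in Adenine and 0.305 to 0.774 CPM in Sham. Summed over the 5 chains, Adenine 3 held 269.7 CPM, where Adenine 1, 2 and 4 had 101 to 114 CPM and Sham had 78.1 to 120.5 CPM.

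Relative to the classical class I genes of the same library, class II chains were higher on the adenine diet in all 4 libraries. The ratio of H2-Aa, H2-Ab1 and H2-Eb1 to H2-K1 and H2-D1, in which the scaling of a library cancels, was 0.433, 0.648, 0.643 and 0.425 in Adenine 1 to 4, against 0.349, 0.311, 0.329 and 0.316 in Sham 1 to 4. The means were 0.537 ± 0.125 in Adenine and 0.326 ± 0.0168 in Sham (SD, n = 4 each). The Adenine range therefore lay above the Sham range with Adenine 3 and without it, but the libraries reached it differently. Adenine 3 had the highest sum of both classes, 417 CPM for the class I pair, whereas Adenine 1, 2 and 4 had 171 to 243 CPM against 249 to 376 CPM in Sham, at class II values within or near the Sham range. These ratios were formed after the values of the genes had been seen, a share of gene pairs that separate the diets was not computed, and they carry no test.

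**Figure D4:**
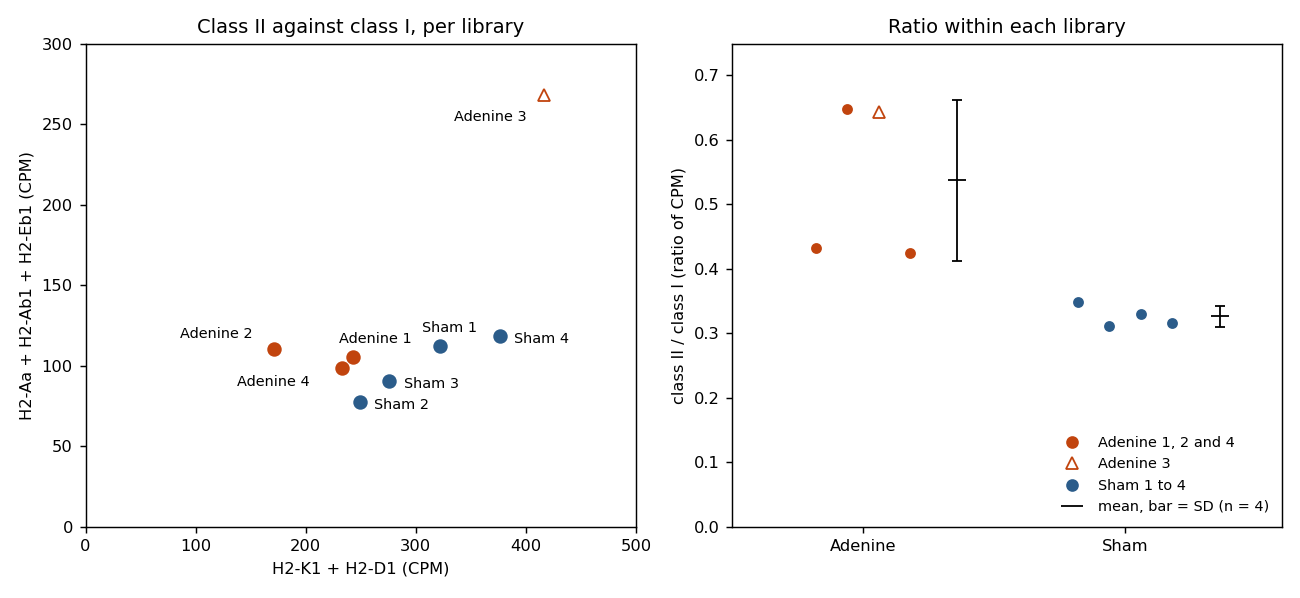
Left, the summed CPM of the class II chains H2-Aa, H2-Ab1 and H2-Eb1 (y axis) against that of the class I chains H2-K1 and H2-D1 (x axis), 1 point per library. Right, their ratio in the Adenine and Sham libraries with mean and SD (n = 4); the Adenine libraries lie at 0.425 to 0.648 and the Sham libraries at 0.311 to 0.349.

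Each of the 6 single pairs gave the same separation, but these pairs are the parts of that ratio and are no independent support for it. The ratio of H2-Ab1 to H2-D1, for example, was 0.229 to 0.365 in Adenine and 0.170 to 0.190 in Sham, and that of H2-Ab1 to H2-K1 was 0.327 to 0.489 in Adenine and 0.196 to 0.239 in Sham. H2-Aa to H2-D1 came closest to overlap, with 0.236 to 0.477 in Adenine and 0.185 to 0.224 in Sham. Cd74 over B2m did overlap, because Adenine 3 stood at 0.282 and Sham 2 at 0.283, while the other Adenine libraries had 0.420 to 0.508 and Sham libraries 0.253 to 0.283. Per unit of Ptprc, the pan-leukocyte phosphatase CD45, the class II chains were at 6.54 to 10.5 in Adenine and 8.46 to 15.4 in Sham, which overlapped with the Adenine mean lower.

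Cd74 encodes the invariant chain and lies on chromosome 18 (chr18:60803848-60812652). It had 60.9, 63.6, 105 and 59.9 CPM in Adenine 1 to 4, against 63.8, 47.3, 59.8 and 73.3 CPM in Sham 1 to 4. Adenine 3 was alone above the Sham range, and the log2 fold change of 0.25 (SE 0.20, edgeR adjusted p = 0.474) was 0.00 without it. H2-DMa and H2-DMb1, which form the peptide exchange factor H2-DM, were also highest in Adenine 3, and Adenine 2 lay above the Sham range too in H2-DMb1. H2-DMa had 4.72, 5.44, 10.2 and 4.93 CPM in Adenine, against 6.29, 3.49, 3.88 and 5.01 CPM in Sham. H2-DMb1 had 4.32, 5.50, 10.5 and 3.92 CPM in Adenine, against 5.09, 3.02, 3.73 and 4.05 CPM in Sham. Their log2 fold changes were 0.45 (SE 0.29) and 0.61 (SE 0.31), with edgeR adjusted p-values of 0.381 and 0.310, and 0.10 and 0.19 without Adenine 3.

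The other beta chain, H2-DMb2, lay at 1.96 to 2.87 CPM in Adenine and 1.39 to 2.56 CPM in Sham and shared 25.9% of its 50-base words with other transcripts, most of them of H2-DMb1. H2-Ob, the beta chain of the H2-DM inhibitor H2-O, known mainly from B cells, had 1.24 to 2.21 CPM in Adenine and 0.915 to 2.65 CPM in Sham, with a log2 fold change of -0.01. Over the 10 class II genes tested, chains and chaperones together, 9 were positive against 54.2% of all genes and 0 were called; H2-Ob, the exception, was positive (0.11) with upper-quartile factors. Their median log2 fold change was 0.48. Without Adenine 3 it was 0.12, with 9 of 10 still positive, against 53.6% of all genes. H2-Eb2 had 21 to 36 reads in Adenine and 8 to 25 in Sham, and H2-Ea-ps had 16 to 29 and 9 to 24. Genes with so few reads can pass the low-count filter mainly through the diet where they are higher. These counts of signs are therefore not independent of the filter.

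The 6 genes of peptide supply and loading all had negative fold changes, with a median of -0.18, except that Psmb10 and Tap1 turned positive (0.03 and 0.04) with upper-quartile factors, and none was past the threshold. Psmb8, Psmb9 and Psmb10 encode the catalytic subunits that turn the proteasome into the immunoproteasome. Psmb8 had 9.76, 7.03, 14.1 and 10.9 CPM in Adenine 1 to 4, against 14.2, 11.6, 11.9 and 17.2 CPM in Sham 1 to 4. Psmb9 had 8.72, 7.70, 10.6 and 9.46 CPM in Adenine, against 10.7, 8.20, 12.2 and 13.8 CPM in Sham. Psmb10 had 57.9, 37.6, 49.5 and 60.8 CPM in Adenine, against 50.9, 48.7, 67.0 and 54.1 CPM in Sham. For Psmb8, Adenine 1, 2 and 4 lay below every Sham library, while Psmb9 and Psmb10 overlapped in more libraries. Log2 fold changes were -0.39 (SE 0.21, edgeR adjusted p = 0.329), -0.30 (SE 0.19, 0.374) and -0.10 (SE 0.17, 0.736).

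Against their constitutive counterparts the immunosubunits did not separate the diets. Psmb8 over Psmb5 was 0.160 to 0.228 in Adenine and 0.177 to 0.296 in Sham, and Psmb9 over Psmb6 was 0.0658 to 0.0877 in Adenine and 0.0577 to 0.113 in Sham. Psmb10 over Psmb7 spread most, 0.478 to 1.02 in Adenine and 0.496 to 1.06 in Sham.

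Tap1 and Tap2 are the 2 subunits of the peptide transporter, and Tapbp encodes tapasin, which bridges it to the class I heavy chain. Tap1 had 8.04, 7.83, 13.8 and 9.31 CPM in Adenine 1 to 4, against 11.2, 7.39, 9.72 and 12.8 CPM in Sham 1 to 4. Tap2 had 20, 14.9, 15.6 and 22.5 CPM in Adenine, against 19.7, 19.0, 19.0 and 26.4 CPM in Sham. Tapbp had 59.9, 46.4, 54.9 and 60.4 CPM in Adenine, against 63.9, 61.1, 54.2 and 66.2 CPM in Sham. The diets overlapped in all 3, at log2 fold changes of -0.08 (SE 0.22), -0.20 (SE 0.17) and -0.15 (SE 0.14) and edgeR adjusted p-values of 0.850, 0.492 and 0.529. Adenine 3 was highest for Tap1 and not for Tap2 or Tapbp. Exons of Tap1 and Psmb9 overlap by 212 bases on opposite strands, and exons of Psmb8, Tap2 and Tapbp overlap predicted genes on the other strand. Exons of H2-T22, H2-T10, H2-Q4, H2-DMa (with Brd2), H2-Oa, Ciita (with Dexi) and Nlrc5 also overlap those of an opposite-strand gene. The strand setting of the counting was not given in the sources used here, which leaves all these rows uncertain.

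Ciita and Nlrc5 encode the coactivators that switch on class II and class I promoters through elements of the kind searched for above. Ciita (chr16:10480059-10528418) had 4.16, 8.87, 8.47 and 4.75 CPM in Adenine 1 to 4, against 3.74, 2.17, 4.47 and 4.51 CPM in Sham 1 to 4. Adenine 2 and 3 were well above the Sham range, Adenine 4 slightly above it and Adenine 1 within it. The log2 fold change was 0.82 (SE 0.31, edgeR adjusted p = 0.262) and 0.65 without Adenine 3. Nlrc5 (chr8:94434356-94527272) had 5.16, 10.7, 6.40 and 5.27 CPM in Adenine, against 3.48, 2.30, 5.40 and 7.03 CPM in Sham, where only Adenine 2 exceeded the Sham range. Its log2 fold change was 0.59 (SE 0.34, edgeR adjusted p = 0.344), opposite in sign to those of the abundant class I genes. Adenine 2 had the highest value of both regulators and, in the same library, the lowest H2-K1, H2-D1 and B2m. It was also the library with the fewest counts (15626620) and with the highest sum of olfactory and vomeronasal receptor genes (2009 CPM). The part of depth and of this receptor signal in these values was not tested.

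Of the members below the filter, H2-M10.1, H2-M10.4, H2-M10.5, H2-M11, H2-Oa and H2-Q2, none had more than 30 reads in a library. H2-M10.4, H2-M10.5 and H2-M11 had 0 in Sham 2, and H2-M11 also in Sham 4. The 3 reads that an observed 0 allows for counting error would equal 0.0885 CPM in Sham 2 and 0.124 CPM in Sham 4, before TMM scaling. H2-Ke6 carries the prefix but encodes a hydroxysteroid dehydrogenase and no MHC molecule. It had 0.550 to 0.785 CPM in Adenine and 0.678 to 0.956 CPM in Sham and shared 70.5% of its 50-base words with the read-through gene Gm20427.

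Other genes of the pathway were followed from lists, and 0 of them were called by edgeR with all 8 libraries. The 14 further genes of class I supply and loading, such as the proteasome activator Psme3 with -0.28 and the chaperone Calr with -0.42, were negative in 14 of 14, with a median of -0.22, but in 11 of 14 with upper-quartile factors. Of 9 further class II pathway genes, 8 were positive with a median of 0.62, which was 0.04 without Adenine 3. Ctss, the protease that trims the invariant chain, had 34.5, 28.6, 324 and 14.7 CPM in Adenine 1 to 4, against 22.6, 16.1, 13.9 and 15.2 CPM in Sham 1 to 4, so its log2 fold change of 2.57 (SE 0.77, edgeR adjusted p = 0.218) rested on Adenine 3 and was 0.60 without it. March1, a ubiquitin ligase that removes class II from the surface, had a log2 fold change of 0.92 (SE 0.34, edgeR adjusted p = 0.258).

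The 10 promoter factors of the RFX, NF-Y and CREB kind had a median of -0.12 (0.02 with upper-quartile factors), with Rfxap at -0.39 and Rfxank at -0.30 the lowest in p. Among 9 class I-like genes outside the MHC, the median was -0.07 (0.04 with upper-quartile factors). Raet1e, a ligand of the NK receptor NKG2D, was at 1.84, 3.0, 2.58 and 2.06 CPM in Adenine, against 1.10, 0.881, 1.16 and 1.34 CPM in Sham, and Fcgrt, the IgG recycling receptor that also uses beta2-microglobulin, had a log2 fold change of -0.44. The Raet1e libraries did not overlap, at a log2 fold change of 1.08 (SE 0.31) and adjusted p-values of 0.216 in edgeR and 0.0481 in DESeq2.

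Interferon gamma induces both classes through Irf1 and Ciita, and 17 of 22 genes of its signalling and response were negative, against 45.8% of all genes, with a median of -0.34. At an unadjusted p under 0.05, 11 of the 22 were lower against 6.63% of all genes, while with upper-quartile factors these were 3 of 22 against 2.73%. Gbp2, a guanylate-binding protein, had 8.52, 7.89, 11.5 and 8.15 CPM in Adenine 1 to 4, against 16.9, 14.2, 14.2 and 13.7 CPM in Sham 1 to 4. The diets did not overlap, at a log2 fold change of -0.70 (SE 0.17) and an edgeR adjusted p of 0.147, or 0.0263 without Adenine 3. The receptor chain Ifngr2 had a log2 fold change of -0.67 and Irf1 of -0.42. Ifng itself had 0.550 CPM or less in every library and was 0 in Adenine 4.

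Markers of the cells that carry these molecules were set beside the members. The 6 endothelial markers summed to 470.0, 362, 350.0 and 464 CPM in Adenine 1 to 4, against 597, 485, 609.9 and 612 CPM in Sham 1 to 4, and all 6 had negative fold changes with 0 called by edgeR. Tek had -0.58 (SE 0.13, edgeR adjusted p = 0.130, DESeq2 adjusted p = 0.0075) and Cldn5 -1.13 (SE 0.27, edgeR adjusted p = 0.149, DESeq2 adjusted p = 0.00916), so both were called by DESeq2. These sums were lower in every Adenine library, as were H2-K1 and B2m in all but Adenine 3. The 6 fibroblast markers summed to 775, 573, 1157 and 845 CPM in Adenine 1 to 4, against 1404, 1589, 1136 and 984 CPM in Sham 1 to 4, and overlapped only through Adenine 3, where the collagen gene Col1a1 alone had 433 CPM. With all 8 libraries, 5 of the 6 had negative fold changes and 0 were called by edgeR. DESeq2 called Dpt, Tcf21, Dcn and Pdgfra lower, with adjusted p-values of 0.00448 to 0.0462. Without Adenine 3 all 6 were negative, and edgeR called Lum lower (log2 fold change -1.50, adjusted p = 0.0125). The part of endothelial cells and fibroblasts in the class I values was not tested.

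The 8 dendritic cell markers summed to 48.3, 50.3, 60.8 and 38.3 CPM in Adenine, against 29.5, 24.2, 37.8 and 37.3 CPM in Sham. Zbtb46, a transcription factor of classical dendritic cells that endothelial cells also make, was the highest of the 8 in 7 libraries, at 12.8 to 20.4 CPM in Adenine and 13.6 to 25 CPM in Sham. Itgax, which encodes CD11c and is also made by macrophages, stood at 14.5, 8.87, 35.2 and 4.19 CPM in Adenine, against 1.80, 0.915, 1.64 and 1.87 CPM in Sham (log2 fold change 3.34, SE 0.54, edgeR adjusted p = 0.0585, DESeq2 adjusted p = 0.000749, and edgeR adjusted p = 0.00404 without Adenine 3). The dendritic receptor Flt3 was at 3.16, 8.50, 3.12 and 4.41 CPM in Adenine, against 1.42, 1.15, 1.83 and 2.83 CPM in Sham (log2 fold change 1.40, edgeR adjusted p = 0.201, DESeq2 adjusted p = 0.0236), while Clec9a, a marker of cross-presenting dendritic cells, was at 4.34 to 5.36 CPM in Adenine and 3.05 to 5.12 CPM in Sham. B cell markers summed to 10.7 to 18.3 CPM in Adenine and 8.57 to 16.4 CPM in Sham, and T cell markers to 7.0 to 18 CPM in Adenine and 5.86 to 11.3 CPM in Sham, with Adenine 3 lowest of the Adenine libraries in both. The 4 thymocyte markers summed to 0.605 to 4.04 CPM in Adenine and 0.407 to 1.61 CPM in Sham. In all these lymphocyte sums, as in that of the olfactory and vomeronasal receptor genes, Adenine 2 was highest, Adenine 4 second and Sham 2 lowest. The part of that receptor signal in these low sums was not tested. The part of these cell types in the class II values was not tested.

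**Figure D5:**
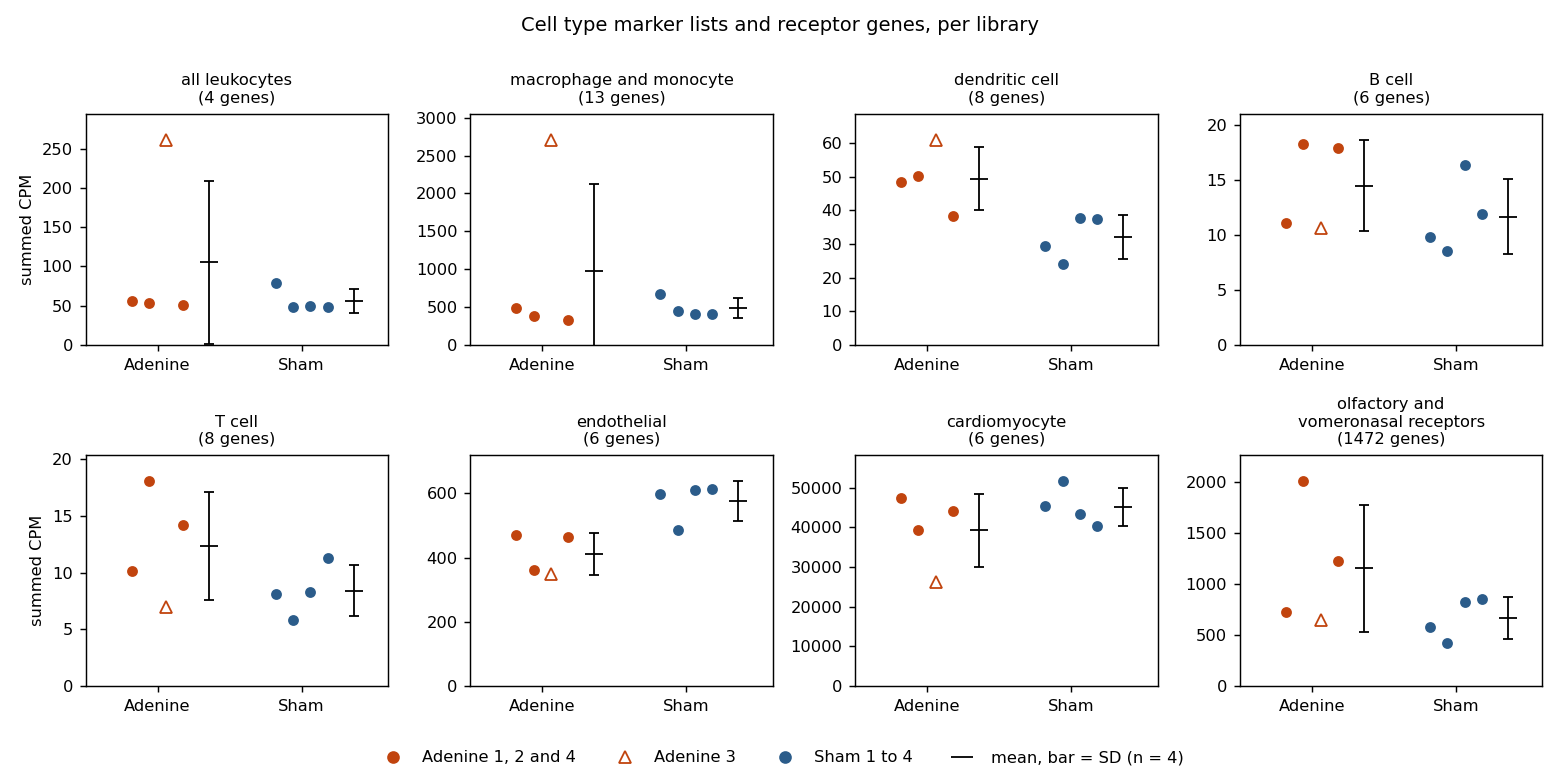
Summed CPM (y axis from 0) of 7 cell type marker lists and of 1472 olfactory and vomeronasal receptor genes in each Adenine and Sham library, with mean and SD (n = 4; the lower bar is cut at 0 for macrophages). Adenine 3, the open triangle, is far above the rest for leukocytes and macrophages, the endothelial sum is lower in all Adenine libraries, and Adenine 2 is highest for the receptor genes.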

How the data were processed

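Heart RNA of 8 libraries was sequenced. The deposited values are raw, unscaled counts of reads per gene, as their whole numbers show. FastQC 0.11.9, STAR 2.7.6a and GRCm38.p6 are listed in the submitters' processing notes. A counting program, annotation and strand setting were not given in the sources used here. Groups and replicate numbers came from the sample titles. Members and gene lists were chosen with earlier results of these data known.

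The test was run with edgeR 4.0.16 in R 4.3.3 (TMM factors, default low-count filter by group, quasi-likelihood F-test of diet, Benjamini-Hochberg adjustment over 20093 genes, threshold 0.05). The common biological coefficient of variation was 0.293. Standard errors derive from the F statistic. CPM use TMM-scaled library sizes. Coordinates and exon lengths are from GENCODE M21, which matched 27275 identifiers, and promoter sequences from RefSeq. Named genes were, per role, up to 6 with the highest mean CPM and up to 3 with the lowest p, and per list the 2 with the lowest p. H2-Q6, H2-Q7, Irf1, Ifng, Clec9a and other genes given beyond these were chosen after their values were seen, as were all ratios. Alternatives were other size factors, no filter, 1 CPM in 4 libraries, DESeq2 1.42.0, limma-voom (limma 3.58.1), the replicate number as a block, each library left out, and class I rows summed. The fits were tested on simulated counts. Within a group, pairs of libraries had chi-square values of 20.0 to 96.8 per gene and were all kept as separate samples. Intervals for a count of 0 cover counting error only.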

Additional observations from a re-analysis of the deposited data

Results flagged for a closer look

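In groups of 4 libraries, the gap between the most extreme value and its neighbour was set against the whole range, and compared with Dixon's critical value for 4 values. Of 98 groups checked, 10 passed. For a single group, chance gives about 1 in 20. The groups share libraries, and the sums contain genes that were also checked singly. They are therefore not independent, and the number that passed was not tested against chance. In 8 of the 10, Adenine 3 was the far library. It had 374 CPM of B2m, 105 CPM of Cd74, 121 CPM of H2-Aa, 70.7 CPM of H2-Ab1, 76.7 CPM of H2-Eb1 and 10.2 CPM of H2-DMa, with sums of 269.7 CPM for the class II chains and 130.3 CPM for their chaperones. In the other 2, Sham 4 was far above the remaining Sham libraries, with 2.67 CPM of H2-Q10 and 26.4 CPM of Tap2.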

How the results depend on the processing

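The count of 0 members past the threshold held under every alternative run, with a lowest adjusted p of 0.0542 (H2-Bl without Adenine 3). Over all genes, 8 were called higher and 0 lower with edgeR; the counts were 18 and 1 with upper-quartile factors, 153 and 175 with DESeq2, 5 higher with limma-voom, 1 lower with no filter, and 1 to 37 higher and 0 to 30 lower when a library was left out. The cause was not tested. Non-overlapping members, 1 higher and 0 lower, numbered 0 higher with upper-quartile factors, and 1 to 6 higher and 0 to 6 lower with a library left out. Over all genes, the non-overlapping shares also rose, to 12.6% higher and 8.31% lower without Adenine 3 from 3.45% and 3.84%. For the other settings these shares were not computed. Upper-quartile factors moved the median log2 fold change of all genes to 0.20 from 0.05.

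Of 344 member fold changes with a library left out, 330 kept their sign, and 311 of 321 did so under the other settings. None of the 24 exceptions was called, and they reached 0.33, for H2-Q5 with a library left out. With a library left out, H2-D1 ranged over -0.46 to 0.05, H2-M3 -0.28 to 0.18, H2-M9 -0.28 to 0.60, H2-Ob -0.24 to 0.25, H2-Q5 -0.36 to 0.33, Psmb10 -0.17 to 0.02 and Tap1 -0.30 to 0.04. Upper-quartile factors gave 0.11 for H2-Ob, 0.0034 for H2-Q5, 0.03 for Psmb10 and 0.04 for Tap1. H2-Ob was 0.05 with the 1 CPM filter and 0.07 with limma-voom, which gave 0.05 for H2-Q5.

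Replicate numbers did not pair the samples: same-numbered libraries correlated at 0.0863, -0.50, -0.16 and 0.30, and only number 4 correlated best with its own number. The replicate block called 16 genes higher and 16 lower over all genes and 0 members, with -0.05 for H2-M3, 0.03 for H2-Ob and 0.02 for H2-Q5. Values below 1 CPM rest on few reads and carry large counting error.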
